A study of Mus musculus with 12 samples.

Results

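The 10 core genes of the circadian clock, Per1, Per2, Per3, Cry1, Cry2, Arntl, Clock, Nr1d1, Nr1d2 and Dbp, were followed in lens cells (LCs) of wild type and β8 integrin conditional knockout (β8ITG-cKO) mice after lens fiber cell removal. They were taken by gene symbol from tables of 45859 genes, and each of the 10 symbols was found once. The samples are lens capsules with their attached LCs, collected at 0 h or 24 h post cataract surgery (PCS), in 3 libraries per group and 12 libraries in all. All mice were adults of 2 months and of both sexes, and all eyes had the fiber cells removed through a cut in the cornea. The mice labelled wild type (WT) were C57BL/6. The β8ITG-cKO mice were on a mixed C57BL/6 and 129S1/Sv background and carried floxed Itgb8, the gene of the β8 integrin subunit, with the lens-specific MLR10-Cre transgene, which is active in all lens cells from the lens vesicle stage on. The labels give this background, and the study's methods place the Cre mice on C57BL/6<har>, with repeated backcrossing to C57BL/6<har>. Each library was made from a pool of capsules. Strain background and loss of Itgb8 cannot be told apart in any comparison of WT with β8ITG-cKO. The hour of day at which eyes were operated on or capsules were frozen is not given in the sources used here, so hour of collection and group cannot be told apart either.

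The clock is a feedback loop of transcription that runs in nearly every cell type. CLOCK and BMAL1, the product of Arntl, bind E-boxes as a pair and turn on the Per and Cry genes, whose proteins then block the pair. The same pair turns on Nr1d1 and Nr1d2, which encode the REV-ERB repressors, and Dbp, which encodes an activator that binds D-boxes. REV-ERB proteins compete with ROR activators at ROR elements and repress Arntl, so in most tissues Arntl is high when Nr1d1 and Dbp are low. The eye holds clocks in the retina, the cornea and other tissues, and glucocorticoids and feeding can shift clocks outside the brain.

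The promoters of clock genes can carry the elements through which the loop works. Here 6 windows are printed, chosen with their matches known, because their genes differ in these data or hold the clearest matches. Dbp and Nr1d2 also differ in these data, and their windows are not printed. Sequences are from RefSeq on GRCm38.p6 and run 5′ to 3′ on the strand of the gene, from 250 bases before an annotated start to 50 after it, 300 bases in all. Capitals mark matches on either strand to the E-box CACGTG, the variant CACGTT (here called the E′ box), the D-box TTATGNAA or the ROR element AGGTNA. A match on the other strand reads as its reverse complement.
Nr1d1, chr11:98775328-98775627, minus strand: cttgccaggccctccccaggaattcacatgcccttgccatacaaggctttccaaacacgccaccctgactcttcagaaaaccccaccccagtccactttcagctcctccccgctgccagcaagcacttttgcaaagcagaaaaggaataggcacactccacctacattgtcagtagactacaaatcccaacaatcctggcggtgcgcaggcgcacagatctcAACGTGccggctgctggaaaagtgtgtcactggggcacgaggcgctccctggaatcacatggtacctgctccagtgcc
Per1, chr11:69098699-69098998, plus strand: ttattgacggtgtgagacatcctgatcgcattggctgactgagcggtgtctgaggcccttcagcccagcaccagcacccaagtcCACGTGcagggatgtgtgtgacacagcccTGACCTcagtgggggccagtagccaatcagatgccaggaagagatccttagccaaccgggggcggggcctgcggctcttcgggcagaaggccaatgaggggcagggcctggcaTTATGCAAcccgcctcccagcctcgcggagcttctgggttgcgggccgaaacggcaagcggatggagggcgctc
Cry1, chr10:85185005-85185304, minus strand: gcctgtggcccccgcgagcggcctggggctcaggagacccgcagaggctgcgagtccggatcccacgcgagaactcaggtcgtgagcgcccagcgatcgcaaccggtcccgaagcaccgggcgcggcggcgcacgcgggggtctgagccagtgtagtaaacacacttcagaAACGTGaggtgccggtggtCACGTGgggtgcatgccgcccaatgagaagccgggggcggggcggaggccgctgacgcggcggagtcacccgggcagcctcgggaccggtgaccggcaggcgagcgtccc
Cry2, chr2:92434020-92434319, minus strand: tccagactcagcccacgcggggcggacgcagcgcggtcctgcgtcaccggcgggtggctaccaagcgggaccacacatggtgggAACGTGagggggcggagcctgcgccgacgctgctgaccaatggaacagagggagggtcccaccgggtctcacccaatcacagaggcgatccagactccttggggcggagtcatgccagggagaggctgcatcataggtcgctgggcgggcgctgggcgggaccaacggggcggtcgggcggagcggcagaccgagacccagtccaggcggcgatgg
Per3, chr4:151044616-151044915, minus strand: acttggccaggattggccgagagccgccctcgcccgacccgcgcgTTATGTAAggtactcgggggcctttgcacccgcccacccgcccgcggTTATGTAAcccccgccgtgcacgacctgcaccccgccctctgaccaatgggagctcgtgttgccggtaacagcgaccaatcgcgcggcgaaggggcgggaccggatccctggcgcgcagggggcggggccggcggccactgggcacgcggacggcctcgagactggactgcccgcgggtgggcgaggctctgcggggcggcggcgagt
Arntl, chr7:113207261-113207560, plus strand: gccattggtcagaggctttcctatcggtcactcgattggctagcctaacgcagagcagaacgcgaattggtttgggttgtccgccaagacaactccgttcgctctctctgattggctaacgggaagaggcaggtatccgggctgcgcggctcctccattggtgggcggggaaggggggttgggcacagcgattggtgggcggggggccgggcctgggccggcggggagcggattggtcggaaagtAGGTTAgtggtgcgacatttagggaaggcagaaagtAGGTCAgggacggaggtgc

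Nr1d1 had a single match, an E′ box 28 bases upstream of its start. Per1 had an E-box 166 bases upstream, a ROR element match 137 bases upstream and a D-box 24 bases upstream. In Cry1 an E-box stood 60 bases and an E′ box 79 bases upstream, whereas Cry2 had only an E′ box, 166 bases upstream. The Per3 window held 2 D-boxes, 205 and 158 bases upstream. Around the printed Arntl start, the ROR element matches lay 5 bases upstream and 32 bases downstream. An entry was found for 9 of the 10 genes, with 13 windows, and Per2 had none. No match was found in the Dbp window or at the second Per1 start. The first and second Clock starts had no match either. Nr1d2 had a single match, a ROR element 77 bases upstream. Among 32851 windows of the same length in the same table, the E-box was present in 7.15%, the E′ box in 4.68%, the D-box in 3.38% and the short ROR element in 42.3%. The 4 motifs do not overlap each other at the places marked. The matches describe the letters of these windows and not binding in these cells.

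**Figure D1:**
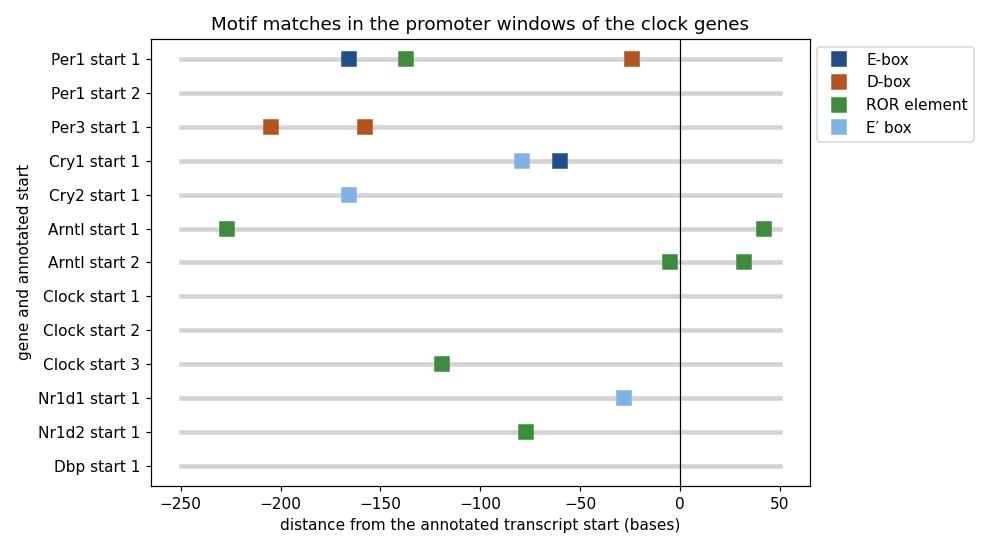
Positions of motif matches in the 13 promoter windows of 9 clock genes. The x axis is the distance in bases from the annotated transcript start, each grey bar is one window, and each square is a match. The ROR element matches at the second Arntl start lie on both sides of the start, and Dbp shows no match in its window.

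All 10 clock genes were measured above the filter of a mean of 0.5 FPKM in every comparison. FPKM counts sequenced fragments relative to gene length and to the size of the library, so levels can be set side by side between genes. On this scale Nr1d1 covered the widest span, from 7.10 to 45.21 FPKM over the 12 libraries, and Cry1 a narrow one, from 4.86 to 7.22 FPKM. Measured as the root mean square of the log2(FPKM + 1) deviations from the mean of each gene, the spread over the libraries was 0.87 for Nr1d1, 0.75 for Arntl and 0.73 for Per1. It was 0.46 for Dbp and 0.45 for Cry2. For Cry1 it was 0.14, for Clock 0.15 and for Per3 0.20. Nr1d2, at 0.32, and Per2, at 0.30, lay between these, so the spread was graded over the 10 genes.

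**Figure D2:**
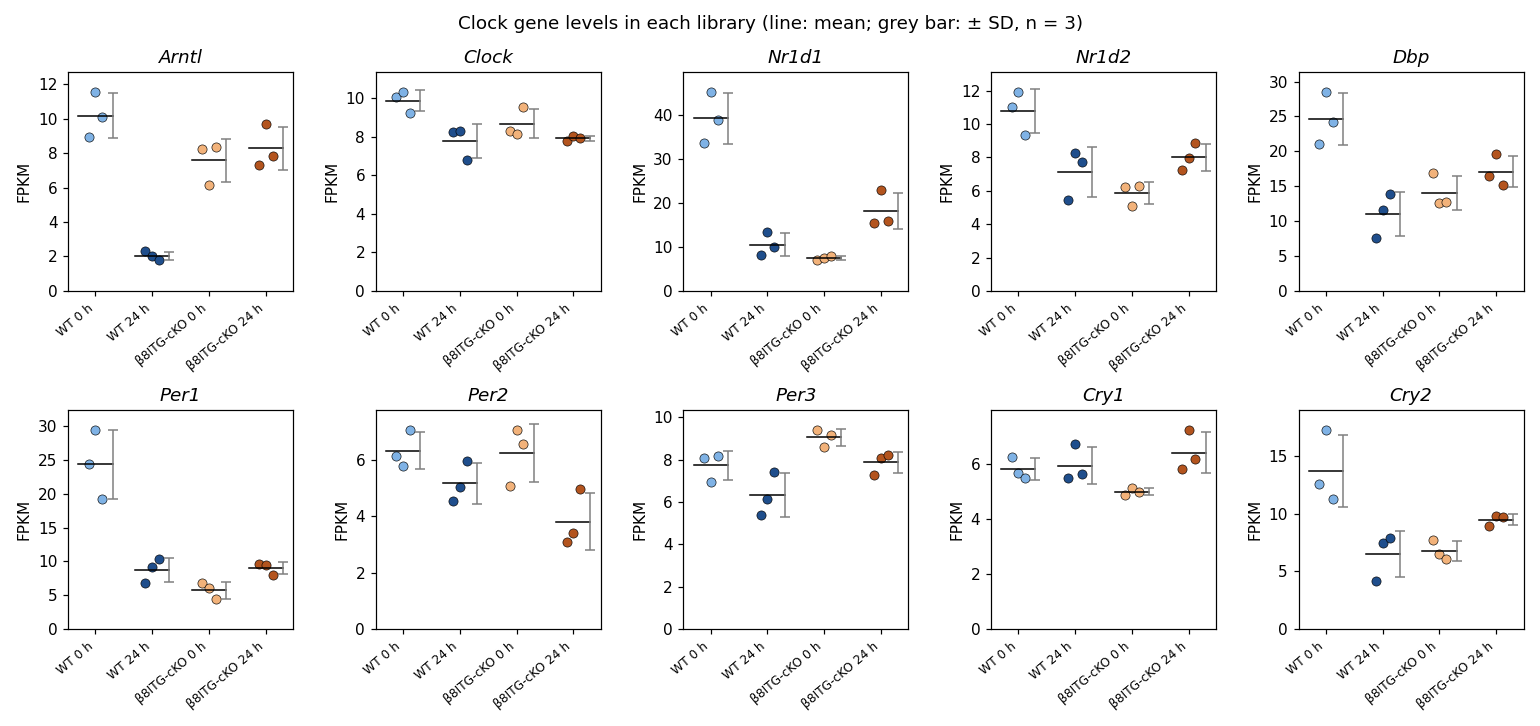
FPKM (y axis, linear from 0) of the 10 clock genes in each of 12 libraries, by group (x axis). Points are libraries, black lines are group means, and grey bars are ± SD (n = 3). Nr1d1, Per1, Dbp, Cry2 and Nr1d2 are highest in WT 0 h with no overlap, and Arntl is lowest in WT 24 h with no overlap.

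Order of the group means also differed between genes. WT 0 h had the highest mean for 8 of the 10 genes. For Per1, Cry2, Nr1d1, Nr1d2 and Dbp, its libraries did not overlap those of the group with the next mean, which was β8ITG-cKO 24 h each time. For Arntl, the 3 upper groups overlapped their neighbours in the order WT 0 h, β8ITG-cKO 24 h and β8ITG-cKO 0 h, and WT 24 h stood below all of them. Per3 was highest in β8ITG-cKO 0 h, and Cry1 was highest in β8ITG-cKO 24 h, where its libraries overlapped those of WT 24 h. For Nr1d1 no neighbouring groups overlapped, in the order WT 0 h, β8ITG-cKO 24 h, WT 24 h and β8ITG-cKO 0 h.

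The first comparison asked how LCs changed over the first 24 h PCS in WT mice. Arntl, Nr1d1, Per1, Dbp and Cry2 fell, and each change called among the 10 clock genes was a fall. These 5 of 10 stand beside 8.81% of 15146 genes called lower at an adjusted p of at most 0.05 (limma-trend on log2(FPKM + 1), Benjamini-Hochberg adjustment over all genes tested). The median log2 difference was -0.76 over the 10 clock genes and 0.16 over all genes. Fewer cells of a type and less RNA per cell cannot be told apart in these bulk libraries.

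Arntl, the activator that pairs with CLOCK, was at 8.92, 11.57 and 10.08 FPKM in WT at 0 h but at 2.30, 2.00 and 1.80 FPKM in WT at 24 h. Every 24 h library was far below every 0 h library, and the mean of 10.2 ± 1.33 FPKM at 0 h was 5.01 times the 2.03 ± 0.254 FPKM at 24 h (SD, n = 3). The log2 difference was -1.88 with an SE of 0.16 and an adjusted p of 0.000355 by limma. Clock, which encodes its partner, had 10.03, 10.32 and 9.24 FPKM at 0 h and 8.26, 8.28 and 6.78 FPKM at 24 h. Its groups did not overlap, but the log2 difference of -0.31 did not pass the test by limma (95% interval -0.64 to 0.01, adjusted p = 0.132).

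Nr1d1, which encodes the repressor REV-ERBα, stood at 33.63, 45.21 and 38.73 FPKM at 0 h, compared with 8.16, 13.34 and 9.92 FPKM at 24 h. All 3 libraries at 24 h lay below all 3 at 0 h, and the mean fell from 39.2 ± 5.8 to 10.5 ± 2.64 FPKM (SD, n = 3). Nr1d1 thus fell by 1.82 on the log2 scale (SE 0.20, adjusted p = 0.00093 by limma) in the same libraries in which Arntl fell. Nr1d2, the gene of REV-ERBβ, had 11.02, 11.93 and 9.35 FPKM at 0 h against 5.43, 8.25 and 7.73 FPKM at 24 h. The groups of Nr1d2 stood apart as well, yet its log2 difference of -0.54 (95% interval -0.97 to -0.12) had an adjusted p of 0.0578 by limma.

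Dbp, a target of the CLOCK and BMAL1 pair whose RNA follows the clock closely in many tissues, had 21.07, 28.54 and 24.17 FPKM at 0 h and 7.54, 11.62 and 13.84 FPKM at 24 h. The groups did not overlap, and Dbp fell by 1.12 on the log2 scale (SE 0.22, adjusted p = 0.00936 by limma). Per1, a repressor that many acute signals also induce, had 24.39, 29.44 and 19.20 FPKM at 0 h and 6.86, 9.23 and 10.31 FPKM at 24 h. Its lowest 0 h library was well above its highest 24 h library, and the log2 difference was -1.37 (SE 0.20, adjusted p = 0.00316 by limma). Cry2, which encodes a partner of the PER proteins, had 12.57, 17.24 and 11.31 FPKM at 0 h and 4.21, 7.48 and 7.88 FPKM at 24 h. It fell by 0.99 on the log2 scale (SE 0.25, adjusted p = 0.0216 by limma). Of the 5 falls, that of Cry2 was the only one lost when single libraries were left out, with an adjusted p of 0.0583 without WT 0 h replicate 1 and 0.0681 without WT 0 h replicate 2.

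The other repressors moved less. Per2 had 6.16, 5.78 and 7.07 FPKM at 0 h and 4.54, 5.03 and 5.98 FPKM at 24 h, so its groups overlapped (log2 difference -0.25, 95% interval -0.61 to 0.11). Per3 had 8.05, 6.95 and 8.17 FPKM at 0 h and 5.37, 6.16 and 7.42 FPKM at 24 h, which also overlapped (-0.26, 95% interval -0.63 to 0.11). Cry1, whose transcription is the most delayed of the repressors in most tissues, had 6.24, 5.67 and 5.49 FPKM at 0 h and 5.47, 6.71 and 5.62 FPKM at 24 h (0.03, 95% interval -0.31 to 0.36). In all, the libraries of WT 0 h and WT 24 h did not overlap for 7 of the 10 clock genes, against 46.9% of all genes tested. The 5 falls also met the thresholds on group means set by the study (more than 2-fold apart, by more than 2 FPKM, with one mean reaching 2 FPKM). Of all genes tested, 14.3% were called in either direction and met these thresholds.

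Among 18 partners and regulators of the clock, 2 were called higher, beside 20.9% of all genes, 5 were called lower and 11 not. Those called lower were Hlf and Tef, which encode activators of the DBP family, Rora, which encodes a ROR activator, Ciart, a repressor of the CLOCK and BMAL1 pair, and Bhlhe41. Hlf fell from 16.87, 20.02 and 16.83 FPKM to 5.40, 5.69 and 5.96 FPKM, by 1.50 on the log2 scale. Ciart fell from 7.92, 14.21 and 11.27 FPKM to 0.83, 4.90 and 4.95 FPKM, by 1.57, with 1 library at 24 h far below the other two. Arntl2, a paralog of Arntl, and Csnk1d, a kinase of the PER proteins, were called higher by 0.80 and 0.49. Of 9 genes whose RNA is rhythmic in many tissues, 3 were called lower and 3 higher, beside 8.81% and 20.9% of all genes. Usp2, which encodes a deubiquitinase, fell by 1.79, Cirbp, whose RNA-binding protein responds to cold, by 1.78, and Lonrf3 by 1.45. Tspan4 rose by 1.58, Noct, a clock output gene, by 1.48, and Nampt by 0.84. Of 6 glucocorticoid-responsive genes, limma called 0 in this comparison, and 1 had an unadjusted p under 0.05. The whole-gene median of 0.16 moved to -0.05 when libraries were rescaled to the same median, and Clock (-0.55, adjusted p = 0.0102 by limma) and Nr1d2 (-0.78, adjusted p = 0.0122) were then called lower too, while Csnk1d was not called (0.24). Rescaling also moved the share of all calls that were higher from 70.3% to 47.3%.

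The comparison of the genotypes at 0 h asked whether LCs differed at the time of surgery. Nr1d1, Per1, Cry2, Nr1d2 and Dbp were lower in β8ITG-cKO than in WT, 5 of the 10 clock genes, beside 2.75% of 14708 genes called lower. The median log2 difference was -0.58 over the clock genes and 0.02 over all genes. WT and β8ITG-cKO libraries stood apart for 8 of the 10 clock genes, against 30.8% of all genes tested. Nr1d1, Per1 and Cry2, 3 of the 10 clock genes, were called and met the study's thresholds on group means. Of all genes tested, 2.52% were called in either direction and met them.

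In β8ITG-cKO at 0 h, Nr1d1 was at 7.10, 7.50 and 7.86 FPKM, against 33.63 FPKM or more in every WT 0 h library. These β8ITG-cKO values lay within a narrow band, and the mean of 7.49 ± 0.38 FPKM (SD, n = 3) was 0.191 times that of WT. The log2 difference was -2.23 with an SE of 0.13 and an adjusted p of 0.000274 by limma. Per1 had 6.82, 6.10 and 4.39 FPKM in β8ITG-cKO against 19.20 FPKM or more in WT, a log2 difference of -1.90 (SE 0.19, adjusted p = 0.00303 by limma). The genotypes were therefore separated by 5.24 times for Nr1d1 and 4.22 times for Per1 on the scale of mean FPKM, and both calls held with each single library left out.

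Cry2 had 7.72, 6.53 and 6.06 FPKM in β8ITG-cKO, below the 11.31 FPKM of the lowest WT 0 h library, and its log2 difference was -0.91 (SE 0.17, adjusted p = 0.0241 by limma). Nr1d2 had 6.21, 5.10 and 6.28 FPKM against at least 9.35 FPKM in WT, a log2 difference of -0.78 (SE 0.13, adjusted p = 0.0187 by limma). Dbp had 16.90, 12.57 and 12.75 FPKM against at least 21.07 FPKM in WT, a log2 difference of -0.77 (SE 0.16, adjusted p = 0.0297 by limma). All 3 were lower in every β8ITG-cKO library, but these 3 calls rested on the full set of libraries. Cry2, Nr1d2 and Dbp were lost together without WT 0 h replicate 1 (adjusted p of 0.0695, 0.0702 and 0.0596), without β8ITG-cKO 0 h replicate 2 (0.0839, 0.0667 and 0.1) and without β8ITG-cKO 0 h replicate 3 (0.101, 0.0788 and 0.123). Dbp was also lost without WT 0 h replicate 2 (0.0587) or replicate 3 (0.0597). With the replicate number as a block the same 3 genes had adjusted p of 0.0582, 0.0693 and 0.0891.

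Arntl and Clock, the genes of the activator pair, did not pass the test at 0 h. Arntl had 8.27, 6.15 and 8.35 FPKM in β8ITG-cKO, and although these lay below the 8.92 FPKM of the lowest WT library, the log2 difference of -0.39 had a 95% interval of -0.73 to -0.04 and an adjusted p of 0.168 by limma. Clock had 8.29, 8.15 and 9.52 FPKM, overlapping WT (-0.17, 95% interval -0.43 to 0.08). Both genes were thus within a fold of 1.34 of the WT mean, where Nr1d1 and Per1 were separated from it by over 4 times. Per2 had 5.09, 7.06 and 6.59 FPKM in β8ITG-cKO, close to WT (-0.02, 95% interval -0.35 to 0.31). Per3 had 9.39, 8.61 and 9.15 FPKM, each above WT, with a log2 difference of 0.21 (95% interval -0.05 to 0.46, adjusted p = 0.299 by limma). Cry1 had 4.86, 5.10 and 4.98 FPKM, each below WT, with a log2 difference of -0.18 (95% interval -0.43 to 0.07, adjusted p = 0.343 by limma).

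Of the clock partners, 4 of 16 tested were called lower and 12 were not called, against 2.75% of all genes called lower. Ciart had 2.44, 1.58 and 2.02 FPKM in β8ITG-cKO 0 h against 7.92 FPKM or more in WT 0 h, a log2 difference of -1.99. Bhlhe40, which with Bhlhe41 encodes repressors at E-boxes, had 12.41, 11.24 and 9.96 FPKM against 45.81, 41.12 and 29.57 FPKM, a difference of -1.69. Nfil3, whose protein represses at D-boxes, differed by -1.50 and Bhlhe41 by -1.14. Of the 9 rhythmic output genes, Cirbp (-1.35) and Noct (-0.75) were lower. Of 6 genes that respond to glucocorticoids, hormones whose blood level changes with the hour of day and with stress, 4 were lower, namely Sgk1 (-1.59), Zbtb16 (-1.37), Klf9 (-1.28) and Fkbp5 (-1.23). Sgk1 had 17.65, 9.79 and 13.42 FPKM in β8ITG-cKO 0 h and 47.37, 40.24 and 38.89 FPKM in WT 0 h, with no overlap. Their part in the clock gene differences was not tested.

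**Figure D3:**
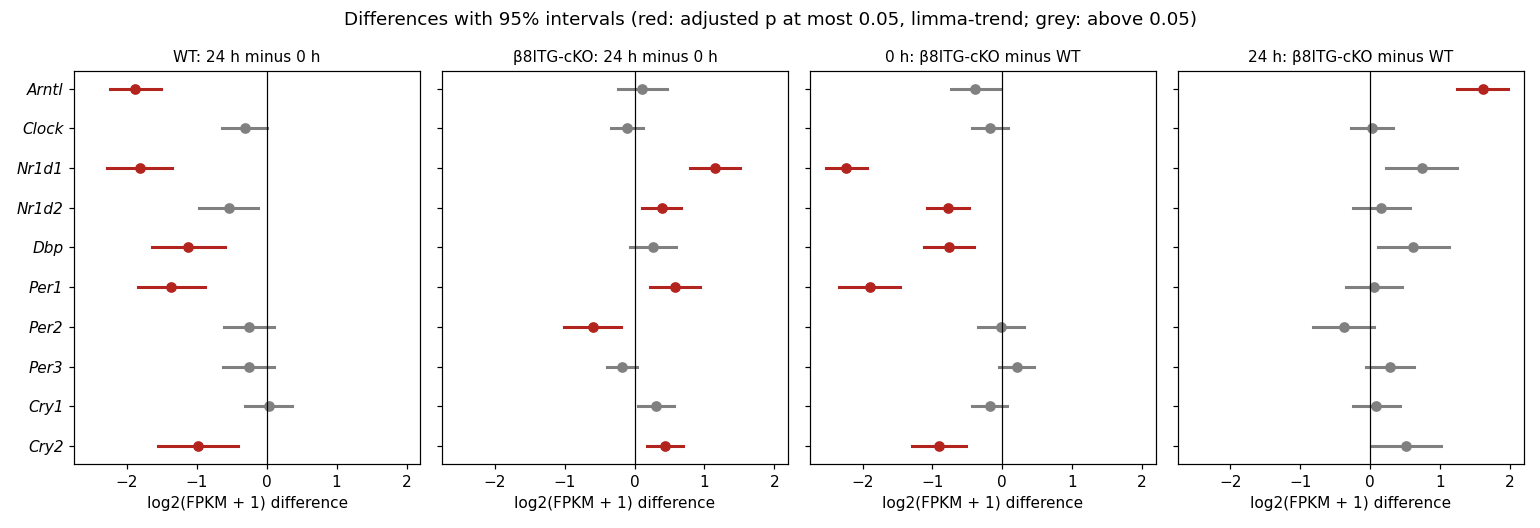
Differences in log2(FPKM + 1) (x axis) of the 10 clock genes in 4 comparisons, with 95% intervals. Red marks an adjusted p of at most 0.05 (limma-trend) and grey one above it. Arntl is the gene called between 0 h and 24 h in WT and between the genotypes at 24 h but not at 0 h, and Nr1d1 is called in WT over time, in β8ITG-cKO over time in the other direction, and at 0 h.

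Over the first 24 h PCS in β8ITG-cKO, Nr1d1, Per1, Cry2 and Nr1d2 were called higher and Per2 lower. These 4 of 10 stand beside 35.4% of 15237 genes called higher, and the 1 of 10 beside 10.7% called lower, so the share of clock genes called was near that of all genes. The median log2 difference was 0.28 over the clock genes and 0.23 over all genes. Against that background, Nr1d1 was the clock gene with a change over 2-fold and the 1 that met the study's thresholds on group means. Of all genes tested, 15.1% were called in either direction and met these thresholds.

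Nr1d1 rose from 7.10, 7.50 and 7.86 FPKM to 15.49, 22.96 and 15.94 FPKM, with all 24 h libraries above all 0 h libraries. The mean at 24 h, 18.1 ± 4.19 FPKM (SD, n = 3), was 2.42 times that at 0 h, and the log2 difference was 1.15 (SE 0.15, adjusted p = 0.000741 by limma). It was still below every WT 0 h library. Per2 had 5.09, 7.06 and 6.59 FPKM at 0 h and 3.09, 3.40 and 4.96 FPKM at 24 h, and fell by 0.60 on the log2 scale (SE 0.18, adjusted p = 0.0257 by limma), with the highest 24 h library just under the lowest 0 h library. Per1 went from 6.82, 6.10 and 4.39 FPKM to 9.68, 9.44 and 8.03 FPKM (0.58, SE 0.16, adjusted p = 0.0173 by limma). Cry2 went from 7.72, 6.53 and 6.06 FPKM to 8.94, 9.80 and 9.73 FPKM (0.44, SE 0.11, adjusted p = 0.0148 by limma).

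Nr1d2 went from 6.21, 5.10 and 6.28 FPKM to 7.24, 7.94 and 8.84 FPKM (0.39, SE 0.12, adjusted p = 0.0293 by limma). These 3 genes had no overlap between the groups. After rescaling to the same median, Per1 (0.32, adjusted p = 0.163), Cry2 (0.17, 0.227) and Nr1d2 (0.13, 0.338) were no longer called by limma, Nr1d1 stayed higher (0.87, 0.00343) and Per2 stayed lower (-0.85, 0.00549), and Per3 (-0.45, 0.00406) and Clock (-0.38, 0.0156) were called lower. The share of all calls that were higher moved from 76.7% to 51.7% with the rescaling. The call of Nr1d1 was the only one kept with every single library left out. Without β8ITG-cKO 24 h replicate 2 it alone was called, with Per1 at an adjusted p of 0.0549, Per2 at 0.0781, Cry2 at 0.0516 and Nr1d2 at 0.0733. Without β8ITG-cKO 0 h replicate 3 the number called was 2, and it was 3 without β8ITG-cKO 0 h replicate 2 or without β8ITG-cKO 24 h replicate 1.

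The other genes of the loop did not pass. Arntl had 7.33, 9.70 and 7.81 FPKM at 24 h, which overlapped its 8.27, 6.15 and 8.35 FPKM at 0 h (0.11, 95% interval -0.23 to 0.46). Thus the interval in β8ITG-cKO did not include the fall of 1.88 measured for Arntl in WT. Dbp had 16.47, 19.56 and 15.19 FPKM at 24 h, also overlapping 0 h (0.27, 95% interval -0.07 to 0.60). Clock had 7.77, 8.04 and 7.92 FPKM at 24 h, each a little below its 0 h libraries (-0.11, 95% interval -0.34 to 0.12). Per3 had 7.29, 8.08 and 8.22 FPKM at 24 h, again each below 0 h (-0.18, 95% interval -0.40 to 0.04). Cry1 had 5.80, 7.22 and 6.17 FPKM at 24 h, each above 0 h (0.30, 95% interval 0.05 to 0.56, adjusted p = 0.0551 by limma). The groups stood apart for 8 of the 10 clock genes, against 56.9% of all genes.

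Of the clock partners, 6 of 17 tested were called higher, 3 lower and 8 not. The number called higher is in proportion to the 35.4% of all genes called higher, and 10.7% of all genes were called lower. Bhlhe40 rose from 12.41, 11.24 and 9.96 FPKM to 43.17, 36.87 and 33.26 FPKM, by 1.66 on the log2 scale. Rorb, which encodes a ROR activator that the retina also expresses, rose by 1.30, from 1.30, 0.45 and 0.78 FPKM to 3.38, 2.71 and 4.44 FPKM, beside a rise of the 12 retinal markers described further on. Tef fell from 24.08, 20.87 and 24.85 FPKM to 8.88, 11.63 and 12.30 FPKM, by 1.03. Hlf fell by 0.98, so both genes of the DBP family fell in β8ITG-cKO as in WT while Dbp itself was not called here. Among the 9 output genes 4 were higher and 1 lower, near the 35.4% and 10.7% of all genes, with Noct higher by 1.31 and Lonrf3 lower by 1.01. Of the glucocorticoid-responsive genes, Klf9 rose by 1.15 and Fkbp5 by 0.78, and Tsc22d3 fell by 0.79. After rescaling, Fkbp5 (0.54, adjusted p = 0.0626 by limma) was not called.

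At 24 h PCS, the comparison of the genotypes asked how far LCs without β8 integrin differ once the response is under way. Arntl was higher in β8ITG-cKO and was the only clock gene called, 1 of 10 beside 5.64% of 15366 genes called higher. Its 7.33, 9.70 and 7.81 FPKM in β8ITG-cKO were each over 3 times the highest WT 24 h library, at 2.30 FPKM. The mean was 8.28 ± 1.25 FPKM in β8ITG-cKO and 2.03 ± 0.254 FPKM in WT (SD, n = 3), a ratio of 4.07, with a log2 difference of 1.61 (SE 0.15, 95% interval 1.25 to 1.97, adjusted p = 0.00175 by limma). With each of the 6 libraries left out in turn, the difference ran from 1.50 to 1.68 and was called each time. It met the study's thresholds on group means too, and 3.66% of all genes were called in either direction and met them. The median log2 difference was 0.22 over the 10 clock genes and 0.03 over all genes.

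Nr1d1, Dbp and Cry2 also had every β8ITG-cKO 24 h library above every WT 24 h library. The groups stood apart for 4 of the 10 clock genes with Arntl, against 26.5% of all genes. The log2 difference was 0.74 for Nr1d1 (95% interval 0.23 to 1.25, adjusted p = 0.101 by limma). For Dbp it was 0.62 (95% interval 0.11 to 1.13, adjusted p = 0.161) and for Cry2 0.52 (95% interval 0.02 to 1.02, adjusted p = 0.231). These 3 did not pass the test over all genes. When all 12 libraries shared one estimate of the spread, Nr1d1 was called as well (adjusted p = 0.0278 by limma). Per1 was close in the genotypes at 24 h, with a difference of 0.05 (95% interval -0.35 to 0.45), whereas it was separated by 4.22 times at 0 h. The intervals were -0.28 to 0.33 for Clock, -0.24 to 0.43 for Cry1, -0.25 to 0.57 for Nr1d2, -0.06 to 0.63 for Per3 and -0.81 to 0.06 for Per2.

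Of the partners tested at 24 h, 2 of 17 were called, both higher in β8ITG-cKO, beside 5.64% of all genes called higher. Rorb differed by 1.65, in libraries that also held far more RNA of retinal markers, and the part of that RNA in its difference was not tested. Rora, with 9.09, 8.98 and 7.91 FPKM in β8ITG-cKO and 4.78, 4.19 and 4.42 FPKM in WT, differed by 0.82. Both encode ROR activators, and their part in the Arntl difference was not tested. Of the output genes Usp2 was higher by 1.28, with 5.43, 5.21 and 5.20 FPKM in β8ITG-cKO and 1.39, 1.71 and 1.69 FPKM in WT. Of the 6 glucocorticoid-responsive genes limma called 0 at 24 h, where 1 had an unadjusted p under 0.05 and their median log2 difference was -0.43.

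Whether the change over time differed between the genotypes was tested as an interaction of time with genotype, fitted to 12 libraries together. It was called for 6 of the 10 clock genes, each with a more positive change in β8ITG-cKO, beside 6.83% of 15262 genes called in that direction. The difference in the log2 change was 2.98 for Nr1d1 (SE 0.26, adjusted p = 0.0009 by limma), which fell in WT and rose in β8ITG-cKO. It was 1.99 for Arntl (SE 0.21, adjusted p = 0.00155), which fell in WT and was not called in β8ITG-cKO. For Per1 it was 1.95 (SE 0.27, adjusted p = 0.0043), and for Cry2 1.42 (SE 0.29, adjusted p = 0.0126), both of which fell in WT and were higher at 24 h in β8ITG-cKO before rescaling. Dbp gave 1.39 (SE 0.28, adjusted p = 0.0133) and Nr1d2 0.94 (SE 0.22, adjusted p = 0.0228). For Nr1d1, Per1, Cry2, Dbp and Nr1d2 the WT 0 h libraries were the highest of all 12, and for Arntl the WT 24 h libraries were the lowest of all 12, so the interactions in 1 direction rested on different groups.

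The remaining genes of the loop had smaller interactions. The 95% interval was -0.14 to 0.54 for Clock, -0.08 to 0.63 for Cry1, -0.30 to 0.46 for Per3 and -0.87 to 0.17 for Per2. After rescaling, the same number of 6 clock genes was called, with Nr1d1 at 2.95 and Arntl at 1.94. Each of 12 libraries left out in turn kept the calls of Nr1d1, Arntl, Per1, Cry2 and Dbp. Nr1d2 was lost without WT 0 h replicate 1 (adjusted p = 0.0522) or 2 (0.0504), without β8ITG-cKO 0 h replicate 2 (0.064) and without β8ITG-cKO 24 h replicate 2 (0.0518) or 3 (0.0544), by limma. The median interaction was 1.16 over the 10 clock genes and 0.00 over all genes. Of the partners 6 of 17 were called in the same direction, beside the 6.83% of all genes, namely Ciart (2.11), Rorb (2.00), Bhlhe41 (1.42), Bhlhe40 (1.40), Nfil3 (1.34) and Rora (1.08). Of the output genes, Usp2 (2.16) and Cirbp (1.91) were called, and of the glucocorticoid-responsive genes Klf9 (1.79).

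**Figure D4:**
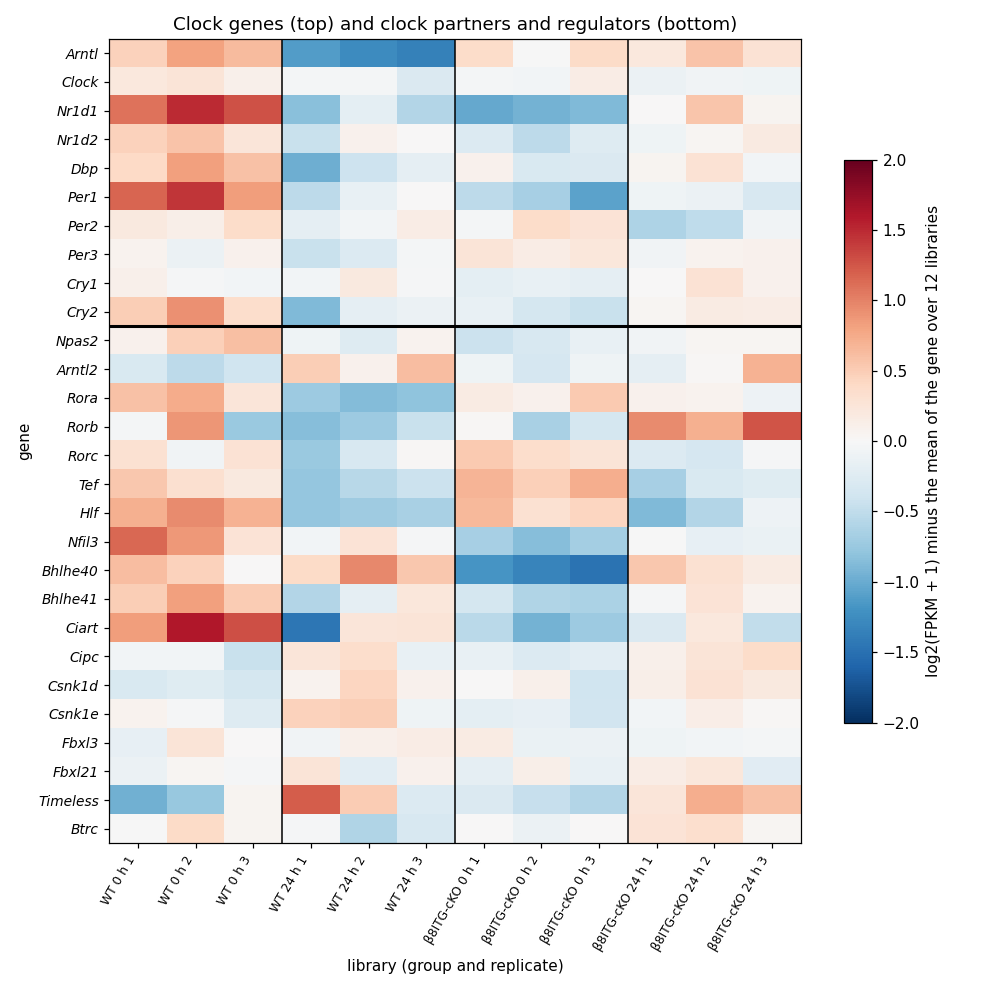
Log2(FPKM + 1) minus the mean of the gene over 12 libraries (colour), for the 10 clock genes above the black line and 18 partners and regulators below it, with libraries on the x axis. In the WT 0 h columns Nr1d1, Per1 and Ciart are dark red, in the WT 24 h columns Arntl is dark blue, and in the β8ITG-cKO 0 h columns Bhlhe40 and Nr1d1 are dark blue.

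The relation of the repressor Nr1d1 to its target Arntl within a library also differed between the groups. The ratio of their FPKM was 3.77, 3.91 and 3.84 in WT 0 h and 3.55, 6.67 and 5.52 in WT 24 h. In β8ITG-cKO 0 h it was 0.858, 1.22 and 0.941, and in β8ITG-cKO 24 h it was 2.11, 2.37 and 2.04. The 6 WT libraries were thus all above the 6 β8ITG-cKO libraries. The ratio of Dbp to Arntl was 2.36, 2.47 and 2.4 in WT 0 h and 3.28, 5.81 and 7.7 in WT 24 h, where it was highest. In β8ITG-cKO it ran from 1.53 to 2.04 at 0 h and from 1.94 to 2.25 at 24 h. These ratios are descriptions of the levels already given, with no test.

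Among the clock genes, Cry2 and Dbp had the most alike profiles, with a root mean square difference of 0.15 between their centred log2(FPKM + 1) values over 12 libraries. Nr1d1 was nearest to Per1 (0.36) and Nr1d2 to Cry2 (0.21). Arntl had no close match among them, its nearest being Dbp at 0.50. Outside the clock, 7295 genes averaging 5 FPKM or more were compared, and the nearest to Arntl were Slc38a3 (0.27), Sv2a (0.29) and Cadm2 (0.31). Slc38a3, a glutamine transporter gene, had 16.18, 23.08 and 16.41 FPKM in WT 0 h, 6.07, 3.45 and 2.59 FPKM in WT 24 h, and 13.15 FPKM or more in all β8ITG-cKO libraries, so its lowest libraries too were those of WT 24 h. Sv2a and Cadm2 encode a synaptic vesicle protein and a cell adhesion protein of neurons. Nearest to Per1 were Srsf5 (0.31), a splicing factor gene, Nfil3 (0.32) and Jund (0.35). Nearest to Nr1d1 were Ciart (0.42), Jund (0.47) and Srsf5 (0.47). These distances describe 12 libraries that share group structure and carry no test.

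The sum of 12 retinal markers moved with some of these results. It came to 400, 1336 and 161 FPKM for WT at 0 h, 86.1, 151 and 163 FPKM in WT 24 h, 391, 210 and 305 FPKM in β8ITG-cKO 0 h, and 1162, 998 and 1175 FPKM in β8ITG-cKO 24 h. All 12 markers were called higher in β8ITG-cKO at 24 h than in WT at 24 h and than in β8ITG-cKO at 0 h, all 12 were called in the interaction, and no marker was at 0 in all libraries of a group. Rorb followed this sum within the groups at 0 h, with 1.20, 3.16 and 0.35 FPKM in WT and 1.30, 0.45 and 0.78 FPKM in β8ITG-cKO, highest and lowest in the libraries with the highest and lowest sums. For Arntl, the 3 β8ITG-cKO 24 h libraries carried both the high retinal sum and the high level, and whether the retinal RNA adds to the 24 h difference cannot be told apart from genotype there. In WT 0 h replicate 3, with a retinal sum of 161 FPKM, Arntl was 10.08 FPKM, and in WT 24 h replicate 3, with a sum of 163 FPKM, it was 1.80 FPKM. Nr1d1 was 38.73 and 9.92 FPKM in the same 2 libraries. They are single libraries, picked for their near-equal sums. The part of retinal RNA in the WT change was not tested. In β8ITG-cKO 0 h, Nr1d1 stayed at 7.10 to 7.86 FPKM at retinal sums of 210 to 391 FPKM. Between the genotypes at 0 h, limma called 0 of the 12 retinal markers, and 0 had an unadjusted p under 0.05.

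**Figure D5:**
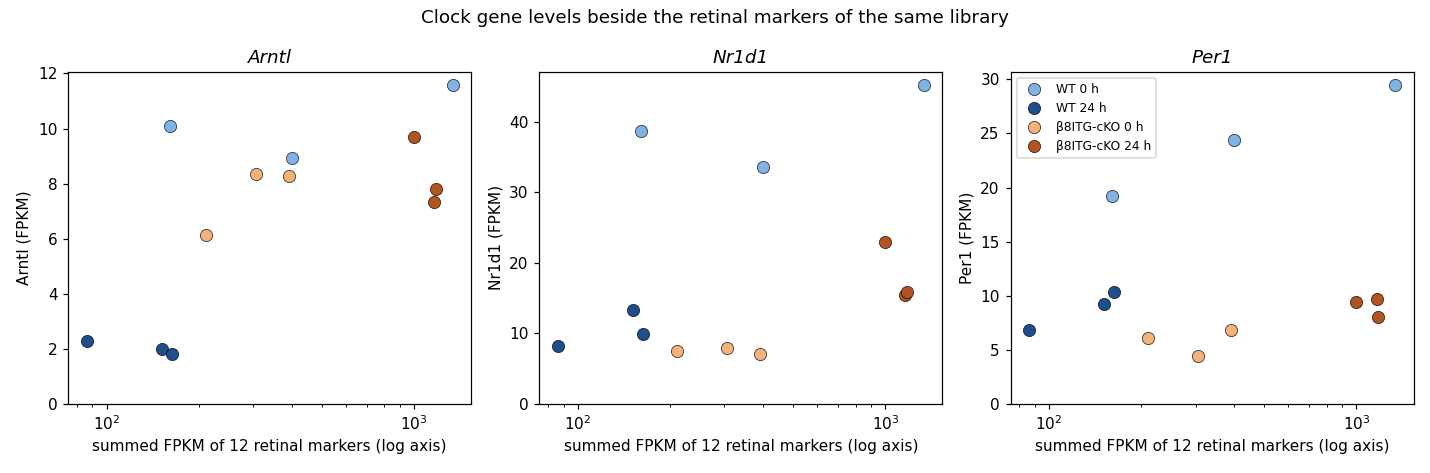
FPKM of Arntl, Nr1d1 and Per1 (y axes, linear from 0) against the summed FPKM of 12 retinal markers (x axis, log scale), with one point per library coloured by group. At retinal sums of 161 and 163 FPKM, WT 0 h replicate 3 and WT 24 h replicate 3 differ in all 3 genes, with Arntl at 10.08 and 1.80 FPKM. These are single libraries picked for their near-equal sums.

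Other marker lists also differed between the groups, and their part in the clock gene results was not tested. The sum of 6 corneal epithelial markers was 214 to 272 FPKM in WT 0 h, 157 to 448 FPKM in WT 24 h, 539 to 921 FPKM in β8ITG-cKO 0 h and 141 to 192 FPKM in β8ITG-cKO 24 h. This sum was almost all Aldh3a1, at 734 ± 189 FPKM in β8ITG-cKO 0 h and 240 ± 29.2 FPKM in WT 0 h (SD, n = 3). Krt12, Krt5 and Krt14 were at 0.45 FPKM or less in every β8ITG-cKO 0 h library, and Dsg1a was called lower there than in WT 0 h (-0.86, adjusted p = 0.0285 by limma), so the list did not move as one. The sum of 8 leukocyte markers rose with time in both genotypes, from 6.2 to 10.5 FPKM up to 47.8 to 70.2 FPKM in WT and from 7.39 to 10.6 FPKM up to 34.4 to 58.3 FPKM in β8ITG-cKO, and S100a8 was listed at 0 in all 0 h libraries. The sum of 8 lens fiber markers fell from 31452 to 46902 FPKM at 0 h down to 11122 to 15698 FPKM at 24 h in WT, and from 37744 to 44990 FPKM down to 7250 to 9618 FPKM in β8ITG-cKO. The sum of 7 lens epithelial markers was between 11527 and 43061 FPKM in all libraries, so lens RNA was present in each. Cryaa and Cryab made up almost all of this sum, although replicate 2 of WT 0 h lists Cryaa at 0. Of the other markers in the list, Foxe3 ran from 25.46 to 172.17 FPKM and Pax6 from 59.90 to 93.49 FPKM. Between the genotypes at 0 h, limma called Foxe3 (0.89) and Cdh1 (0.68) higher in β8ITG-cKO, 2 of the 7 markers. Cdh1 was the only one called at 24 h, lower in β8ITG-cKO (-0.92), and in the interaction (-1.59). Over time, 4 of the 7 were called lower and 1 higher in WT, and 6 were called lower in β8ITG-cKO. The sum of 7 pigment cell markers of iris and ciliary body was 36.5 to 107 FPKM in WT 0 h. It was 28.8 to 34.8 FPKM in WT 24 h. In β8ITG-cKO the sum was 31.6 to 35.5 FPKM at 0 h and 13.4 to 25.1 FPKM at 24 h. Much of the β8ITG-cKO 0 h sum was Oca2, with 16.01, 23.34 and 20.28 FPKM. Over time, Oca2 was the only pigment marker called by limma, and it was lower in both genotypes (-3.36 in β8ITG-cKO, -2.99 in WT). The log2 differences of the other markers tested ran from -0.09 to 0.76 in β8ITG-cKO. In WT they ran from -1.12 to 0.37. For β8ITG-cKO minus WT at 0 h, the median log2 difference was -1.10 over the 6 pigment markers tested. Limma called 0 of them, and 4 had an unadjusted p under 0.05. Oca2 differed by 0.04 there and the other markers tested by -1.58 to -0.71, so the sums at 0 h did not follow all markers alike.

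Bases shared with another gene were measured for 2 of the clock genes, Nr1d1 and Dbp. For Per2, Per3, Cry2, Arntl and Clock, other genes are listed at the same locus, with means of 0.855 FPKM or less. Bases shared with these genes were not measured. Nr1d1 (chromosome 11, 98767932 to 98775377, minus strand, RefSeq on GRCm38.p6) shares 1075 bases at its end with Thra, a thyroid hormone receptor gene on the plus strand. Thra had 50.52, 67.69 and 48.97 FPKM in WT 0 h, 24.71, 22.28 and 28.95 FPKM in WT 24 h, 50.46, 41.66 and 45.02 FPKM in β8ITG-cKO 0 h and 30.27, 32.10 and 38.41 FPKM in β8ITG-cKO 24 h. It fell in both genotypes (-1.10 in WT and -0.44 in β8ITG-cKO) and was not called at 0 h (-0.27), which is a different pattern from that of Nr1d1. Dbp (chromosome 7, 45705100 to 45710203, plus strand) shares 741 bases with Sphk2, a sphingosine kinase gene on the minus strand. Sphk2 had 2.65 to 6.75 FPKM over the 12 libraries, with an adjusted p of 0.125 or more in all 5 tests by limma. Its log2 differences had the same signs as those of Dbp. They were -0.53 in WT over time, 0.25 in β8ITG-cKO over time, -0.48 at 0 h, 0.30 at 24 h and 0.78 in the interaction. After rescaling, Sphk2 was called lower in WT over time (-0.75, adjusted p = 0.0437 by limma). Its part in the Dbp results was not tested. The kit keeps the strand of the RNA, but the strand setting used for counting is not given in the sources used here, so reads in the shared bases are uncertain. The other clock genes lie at chromosome 7, 113178471 to 113314126 (Arntl), chromosome 5, 76209868 to 76305603 (Clock), chromosome 14, 18204056 to 18239106 (Nr1d2), chromosome 11, 69095108 to 69109965 (Per1), chromosome 1, 91415977 to 91459351 (Per2), chromosome 4, 150997018 to 151044707 (Per3), chromosome 10, 85131700 to 85185054 (Cry1) and chromosome 2, 92403646 to 92434085 (Cry2).

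Itgb8, the floxed gene, had 7.26, 10.78 and 8.42 FPKM in WT 0 h, 9.08, 8.38 and 9.58 FPKM in WT 24 h, 6.83, 4.58 and 7.31 FPKM in β8ITG-cKO 0 h and 9.28, 11.83 and 10.28 FPKM in β8ITG-cKO 24 h. The deposited value covers the whole gene and not the deleted part alone, so it does not check the deletion. Summed FPKM was 446531 to 740140 per library, with 36% to 49.6% of it in the 10 highest genes. Read counts were not used here and the depth of the libraries is unknown, so no interval for counting error can be given.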

How the data were processed

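RNA of lens capsules with attached LCs was measured in 12 libraries. The authors prepared stranded total RNA libraries (SMARTer pico kit), and the submitters' processing notes name FastQC, cutadapt 1.12, TopHat2 2.1.0, Cuffdiff 2.2.1, mm10 and GRCm38.p5. The deposited values used are FPKM per library and gene, made by the authors with Cuffdiff, in 4 tables of 45859 genes, where a library has the same values in each. The 8 columns of group means, and the authors' Cuffdiff group values, fold changes and p-values, were not used. FPKM keep no read counts, and a few abundant lens genes take up a large share, so a change in those can move all others.

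Each pair of groups was fitted with limma 3.58.1 (limma-trend, R 4.3.3) on log2(FPKM + 1), keeping genes that averaged 0.5 FPKM or more across its 6 libraries, and the interaction over 12 libraries, with Benjamini-Hochberg adjustment over all genes tested. Fold changes on this scale understate those of low genes. P-values measure the spread between pooled libraries, and whether pools shared animals is not given in the sources used here. Groups came from the sample labels. The clock genes and all lists were chosen with earlier results of these data known. Named were all 10 clock genes, up to 5 called genes of largest change from the partner and output lists per comparison, up to 3 glucocorticoid-responsive genes, genes overlapping a clock gene, and the 3 genes nearest in profile to clock genes with a root mean square of at least 0.5. Genes of the partner, output and glucocorticoid lists named beyond these were chosen after their values were seen. On simulated data the fit called 60.5% to 64.5% of genes changed 2-fold and 91.5% to 95% of those changed 4-fold in pairs of groups. For the interaction it called 45.5% and 89.5%. The changed genes were drawn from levels well above the filter, and the change was made on the log2(FPKM + 1) scale. These rates therefore do not cover low genes. Alternatives covered the pseudocount, the filter, rescaling libraries to one median (taken across genes averaging 2 FPKM or more), one fit over 12 libraries, the replicate number as a block, the study's criteria, and each library left out. Promoter sequences and positions were matched by symbol to RefSeq tables (GRCm38.p6). Python 3.11.15, pandas 2.3.3, numpy 2.4.6 and matplotlib 3.10.9 were used.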

Additional observations from a re-analysis of the deposited data

Results flagged for a closer look

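The change from 0 h to 24 h differed between β8ITG-cKO and WT by the interaction test (limma, adjusted p of at most 0.05) for 6 clock genes. The difference in log2 change, β8ITG-cKO minus WT, was 2.98 for Nr1d1, 1.99 for Arntl, 1.95 for Per1, 1.42 for Cry2, 1.39 for Dbp and 0.94 for Nr1d2. The same test picked out Ciart (2.11), Rorb (2.00) and Bhlhe41 (1.42) among the clock partners, Usp2 (2.16) and Cirbp (1.91) among the output genes, and Klf9 (1.79) among the glucocorticoid-responsive genes. With 3 libraries per group, single libraries could not be tested for standing apart.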

How the results depend on the processing

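The number of clock genes called was 5 in WT over time, 5 in β8ITG-cKO over time, 5 between the genotypes at 0 h, 1 at 24 h and 6 in the interaction. Without the filter it was 3 in β8ITG-cKO over time and 2 at 0 h, in one fit over 12 libraries it was 3 in β8ITG-cKO over time and 2 at 24 h, and with the study's criteria it was 1 and 3 in β8ITG-cKO over time and at 0 h. With each library left out in turn, it ran from 4 to 5 in WT over time, from 1 to 6 in β8ITG-cKO over time, from 2 to 5 at 0 h, from 1 to 1 at 24 h and from 5 to 6 in the interaction. The number called among all genes at 0 h was 1020, and was 254 without the filter, 269 with the block and 136 to 756 with a library left out. At 24 h it was 966, against 1538 in one fit over 12 libraries, 644 with the block and 439 to 1108 with a library left out. For WT over time, 4500 genes became 2512 to 5087 with a library left out, and for the interaction 1433 became 930 at a filter of 2 FPKM and 688 to 1921 with a library left out.

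Replicate numbers did not pair the libraries: deviations of same-numbered libraries from their group means correlated at -0.25 to 0.10. With the replicate number as a block, the number of clock genes called at 0 h was 2, since Cry2, Nr1d2 and Dbp were lost, and it stayed at 5, 5, 1 and 6 in WT over time, β8ITG-cKO over time, at 24 h and in the interaction.

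Differences that changed sign had not been called. After rescaling, the log2 difference was -0.20 for Cry1 in WT over time, -0.15 for Arntl and -0.02 for Dbp in β8ITG-cKO over time, and -0.01 for Per1 and -0.03 for Clock at 24 h. With a library left out it ran from -0.05 to 0.07 for Cry1 in WT over time, from -0.01 to 0.19 for Arntl in β8ITG-cKO over time, from -0.11 to 0.10 for Per2 at 0 h, from -0.10 to 0.16 for Per1, from -0.00 to 0.26 for Nr1d2 and from -0.06 to 0.07 for Clock at 24 h, and from -0.02 to 0.19 for Per3 in the interaction. The causes were not tested. The rescaling moved the share of calls that were higher from 60.3% to 52% at 0 h, from 89.8% to 77% at 24 h and from 72.8% to 62.8% in the interaction. The depth of the libraries is unknown.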
